A study of Rattus norvegicus with 35 samples.

Results

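The genes described here encode the collagens, laminins and matrix proteoglycans of the rat mammary gland, measured in normal glands and in tumours induced by NMU (N-methyl-N-nitrosourea, a carcinogen that alkylates DNA). The members are every gene with a symbol of the form Col, number, a, number, every Lama, Lamb or Lamc gene with a number, and a named set of nidogens, proteoglycans, elastic fibre proteins, crosslinking enzymes and adhesive glycoproteins. Of the 10411 genes that carry 1 symbol on the array, 54 are members, of which 29 are collagens, 8 are laminins and 17 are others. The named set also holds Thbs2, which is not analysed here. The array measures a gene with sets of short probes, each set giving 1 signal, and for a gene with several sets the one whose mean over the arrays was highest was used.

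The study hybridised total RNA from 11 normal rat mammary glands and 24 rat mammary tumours to 35 arrays of the RAE230A design. The normal glands are 8 samples titled NewN, the samples X27.1N and X28.1N, and a sample titled Young. The tumours were frozen, carry titles that begin with X, and were all induced by NMU. The labels used here give no strain, age, dose or histology for either group, and they do not state that each sample is from its own animal, so p-values measure the spread between these samples, which may in part be technical.

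The extracellular matrix of the mammary gland has a fibrous part and a sheet-like part. Fibroblasts secrete the chains of collagens I, III and V, which assemble into fibrils. Small leucine-rich proteoglycans such as decorin bind the fibrils and set their width, lysyl oxidases crosslink them, and fibrillin and elastin make the elastic fibres. The basement membrane lies under the epithelium and around vessels, nerves and fat cells. Its laminins are trimers of 1 alpha, 1 beta and 1 gamma chain, its collagen IV forms a second network, and nidogens and the proteoglycan perlecan join them. Different alpha chains mark different membranes: Lama2 that of muscle, nerve and mesenchymal cells, Lama4 that of vessels and fat, and Lama5 that of epithelium and mature vessels.

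The median signal of an array lay between 158 and 176, and no array pair correlated above 0.987, so none was counted as a duplicate. The Gapdh control probe sets, whose 3′ signal over 5′ signal is a measure of RNA quality, gave ratios from 0.963 to 1.39 in normal glands and from 0.884 to 1.23 in tumours. Tumour X22L stands apart: its signals for 12 luminal epithelial markers summed to 1368, below every other array, and its signals for 10 fibroblast markers summed to 12892, above every other array. Results that rest on it are given with and without it. Precision is limited by how many arrays there are.

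Most of the matrix genes that changed were lower in the tumours. Of the 54 members 29 fell, 9 rose and 16 did not pass the test, which was limma's moderated test with Benjamini-Hochberg adjustment over all 15866 probe sets and a threshold of 0.05. Of all genes 59.0% were called, 27.6% lower and 31.4% higher, against 53.7% and 16.7% of the members. A fall of 2-fold or more was called for 25 members (46.3%, against 5.55% of genes), and a rise of 2-fold or more for 4 (7.41%, against 1.68%). The median log2 change (tumour minus normal) was -0.52 over the members and 0.02 over all genes. These are whole-tissue samples, in which fewer cells of a type and less RNA per cell cannot be told apart.

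**Figure D1:**
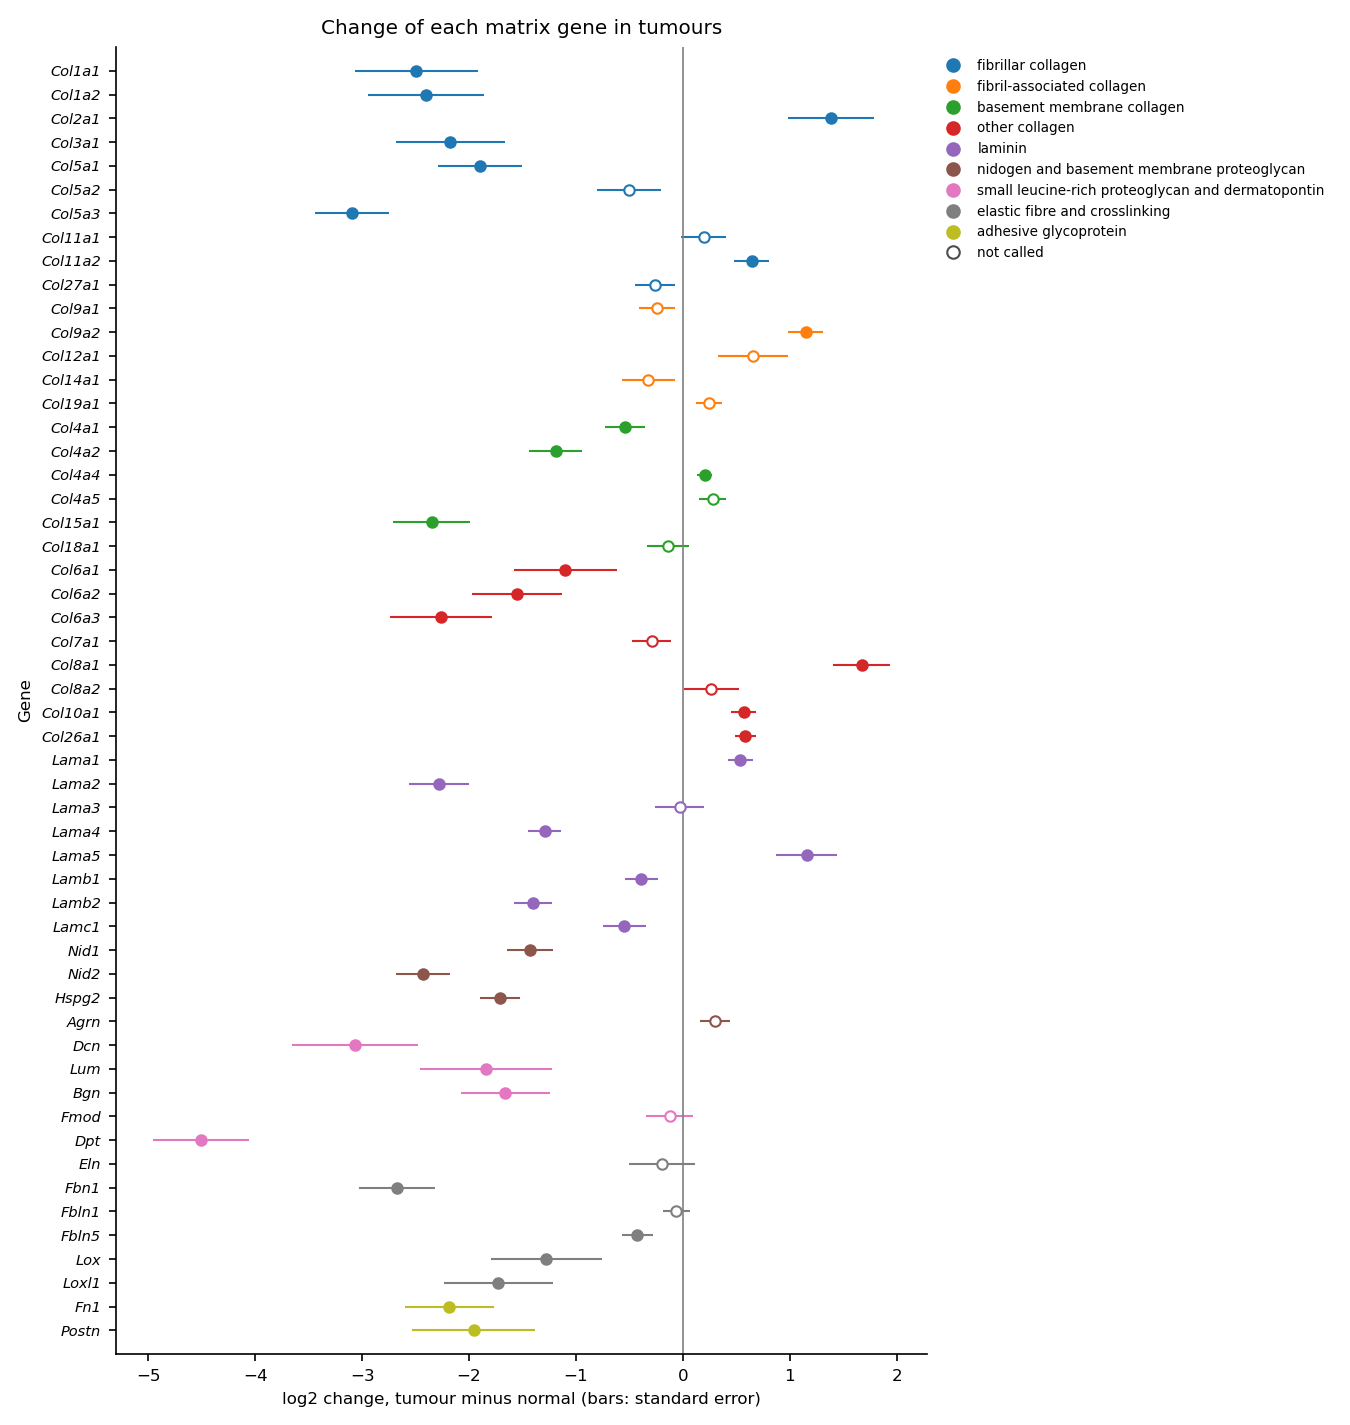
Log2 change of each of the 54 matrix genes, tumour minus normal, with its standard error as the bar, over 24 tumours and 11 normal glands. Colours give the structural class, and open circles mark the 16 genes not called. Dpt lies farthest left at -4.51, and Col8a1 farthest right at 1.67.

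By class, 5 of 10 fibrillar collagens fell, as did 5 of 8 laminins, 3 of 4 nidogens and basement membrane proteoglycans, 4 of 5 genes of the group of small leucine-rich proteoglycans and dermatopontin, 4 of 6 elastic fibre and crosslinking genes, and both adhesive glycoproteins. Of 6 basement membrane collagens 3 fell and 1 rose, and of the 8 collagens outside these classes 3 fell and 3 rose. None of the 5 fibril-associated collagens fell and 1 rose. Of all genes 27.6% fell and 31.4% rose, and classes this small do not show whether a share belongs to the class.

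Several cell type marker lists moved in the same direction as the members, and their part in the results was not tested. All 12 adipocyte markers fell, and their summed signal was 13403 to 36829 in normal glands and 677 to 5380 in tumours. Fabp4, the fatty acid binding protein of fat cells, and Cd36, Plin1, Pparg and Lep were at the floor, the lower bound of 41.6 set on all signals, in over 12 of the 24 tumours. Of 10 fibroblast markers 8 fell, and the sum was 5744 to 10789 in normal glands and 831 to 12892 in tumours, with Pi16 and Prrx1 at the floor in over 12 tumours. Of 10 endothelial markers 9 fell, with sums of 3606 to 4690 against 1499 to 3229, and no marker was at the floor in over 12 tumours. Of 12 luminal epithelial markers 8 rose and 4 did not pass, with sums of 4641 to 12820 in normal glands and 1368 to 30184 in tumours. Of 8 pericyte and smooth muscle markers 6 fell, with sums of 3336 to 9133 against 1179 to 8323. Among 6 basal epithelial markers 1 fell and 5 did not pass. Of 6 macrophage markers 4 fell and 2 did not pass, and of 7 lymphocyte markers 5 fell and 2 did not. In the fit with a score of adipocyte markers as covariate, 0 members were lower and 2 were higher, but that score correlated at -0.97 with the group and inflated the variance of the group term 19.4 times.

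The fibrillar collagens held some of the largest falls and also a rise. Col1a1, which encodes the alpha 1 chain of collagen I, had signals of 3383, 4914 and 9769 (lowest, median and highest) in the normal glands and of 69.2, 968 and 8788 in the tumours. All but X10 (8788), X22L (7928) and 2 other tumours lay below every normal gland, so the groups overlapped at the top of the tumour range. The log2 change was -2.49 (SE 0.57, adjusted p = 0.000379), a 5.63-fold lower level. Its partner chain Col1a2 ran from 3050 to 9146 in normal glands, with a median of 4109, and from 93.7 to 8077 in tumours, with a median of 666. It fell by 2.40 on the log2 scale (SE 0.54, adjusted p = 0.00029), and 19 of 24 tumours lay below every normal gland. Col3a1, the chain of collagen III of loose connective tissue, had signals of 4909, 6288 and 9774 in normal glands and of 190, 1190 and 9450 in tumours. No tumour exceeded the highest normal gland and 19 lay below the lowest, and the gene fell by 2.17 (SE 0.51, adjusted p = 0.000434).

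The measured chains of collagen V, which starts fibrils of collagen I, all had lower fitted levels in tumours, but Col5a2 was not called. Whether the chains differ was not tested. Col5a3, whose chain is found in few tissues, had signals of 379, 691 and 1311 in normal glands and of 8.89, 60.7 and 489 in tumours. Of the tumours 22 lay below every normal gland, and the exceptions were X22L (489) and X10 (399). It fell by 3.09 (SE 0.34, adjusted p = 2.35e-09), although 6 tumours were at the floor, which limits the size of the measured fall. Col5a1 fell by 1.90 (SE 0.39), from a median of 1038 to 220. Col5a2 changed by -0.50 (SE 0.30, adjusted p = 0.148) and was not called, with medians of 1459 and 1032 and X22L (5221) above every normal gland. A second probe set of Col5a2 gave -0.70 (adjusted p = 0.0499), and without X22L the first was called too (-0.60).

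Among the fibrillar collagens, Col2a1 and Col11a2 rose. Col2a1, the collagen of cartilage, had signals of 79.2, 123 and 181 in normal glands and of 67.9, 256 and 1637 in tumours. Of the tumours 16 lay above every normal gland, X26 (1637) and X20 (1583) highest, whereas X6 lay below every normal gland. It rose by 1.39 (SE 0.40, adjusted p = 0.00349), and a second probe set rose by 0.88 (SE 0.17). Col11a2, another cartilage collagen chain, rose by 0.64 (SE 0.16), from a median of 121 to 202, with 7 tumours above every normal gland. Col11a1 lay at the floor in 22 of 24 tumours and in each of the 11 normal glands. The exceptions were X22L, with a signal of 429, and X26, with 101, and the gene was not called (0.19, adjusted p = 0.449). Col27a1 changed by -0.26 (adjusted p = 0.227) and was called lower without X10 and X22L (-0.38).

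**Figure D2:**
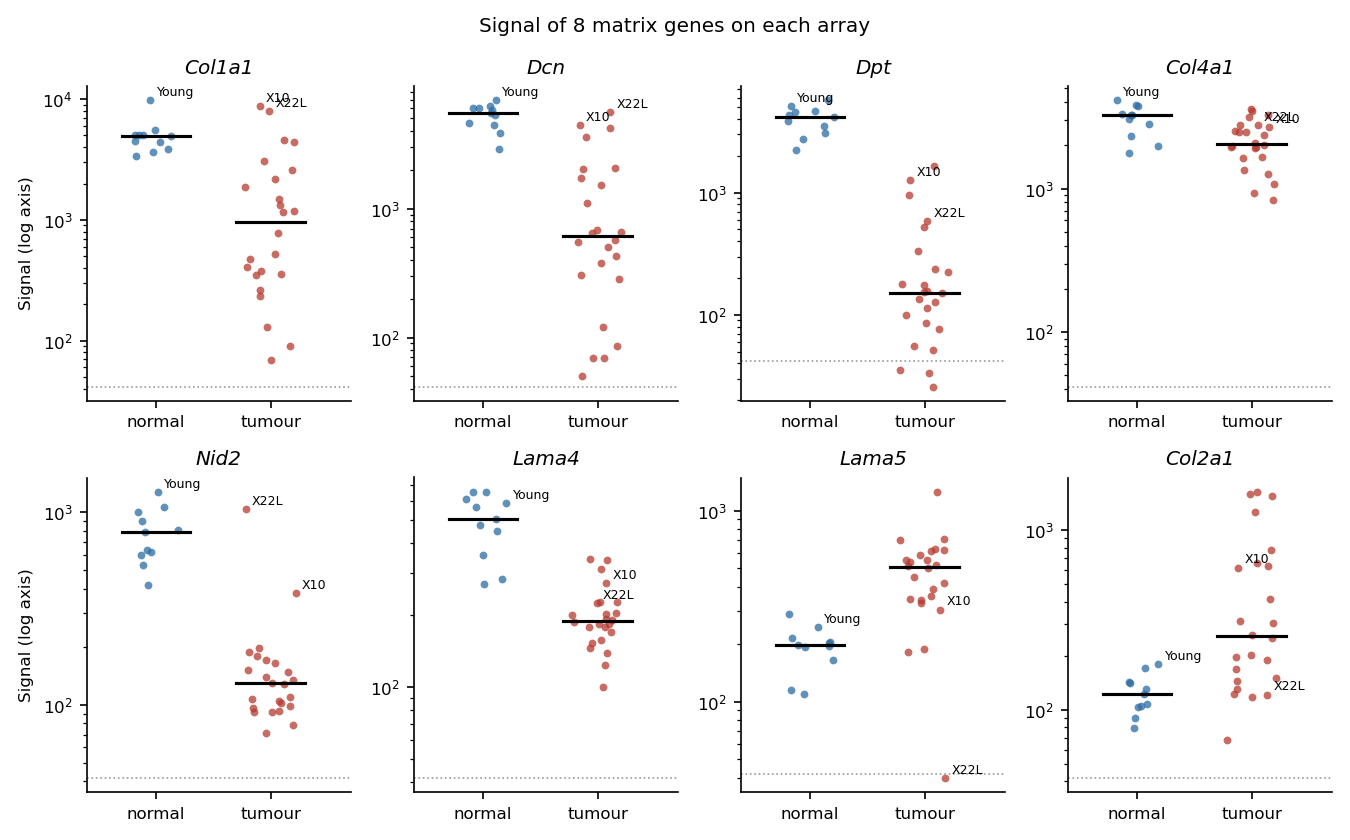
Signal of 8 matrix genes on each array, on a log axis, with 1 point per array, normal glands in blue and tumours in red. Black lines are group medians, the dotted line is the floor of 41.6, and the gland Young and the tumours X10 and X22L are named. All 24 tumours lie below every normal gland for Dpt, 20 do for Col1a1, and 21 lie above every normal gland for Lama5.

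The fibril-associated collagens, which sit on the surface of fibrils, had 1 call in 5 genes. Col9a2 rose: its signals were 142, 166 and 213 in normal glands and 113, 393 and 783 in tumours. Of the tumours 23 lay above every normal gland and X22L (113) lay below every one. The change was 1.15 (SE 0.17, adjusted p = 4.31e-07). Its partner chain Col9a1 changed by -0.24 (adjusted p = 0.21) and was called lower without NewN4, NewN6 and X27.1N (-0.43). Col14a1 had signals of 597, 887 and 2441 in normal glands and of 335, 699 and 1959 in tumours, and the groups overlapped through most of their range (-0.32, SE 0.25, adjusted p = 0.267). Col12a1 changed by 0.66 (SE 0.33, adjusted p = 0.0846), with signals from 66.6 to 998 in tumours, highest in X15. A second probe set of Col12a1 was called higher (0.67, adjusted p = 0.00319), as was the first without Young (0.82) and without X2, X4 and X20 (0.84). Col19a1 changed by 0.24 (adjusted p = 0.0867).

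Among the remaining collagens, the 3 chains of collagen VI fell. Collagen VI makes beaded filaments that link cells to the interstitial matrix. Col6a3 had signals of 603, 995 and 3433 in normal glands and of 40.5, 201 and 1844 in tumours. Of the tumours 19 lay below every normal gland and X22L (1844) and X10 (1621) were highest. It fell by 2.26 (SE 0.48, adjusted p = 0.000131). Col6a2 fell by 1.55 (SE 0.42), while X10 and X22L lay above every normal gland. A second, dimmer probe set of Col6a2 was not called (-0.24, adjusted p = 0.22).

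Col6a1 was called at the edge of the threshold. Its signals were 582, 922 and 2167 in normal glands and 70.4, 353 and 3915 in tumours. Of the tumours 16 lay below every normal gland, but X22L (3915) and X10 (3847) lay above every one. It fell by 1.10 (SE 0.48, adjusted p = 0.0492) and lost its call under the alternatives given in the closing part, among them those without Young (-0.98) and without X2, X4 and X20 (-0.77).

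Col8a1, a short-chain collagen of vessels and of remodelling tissue, had the largest rise of all members. Its signals were 1, 55.0 and 118 in normal glands and 27, 182 and 905 in tumours. Of the tumours 20 lay above every normal gland, X15 highest, and X20 was lowest. The change was 1.67 (SE 0.27, adjusted p = 2.83e-06), with 2 normal glands at the floor. Col8a2, its partner chain, changed by 0.27 (adjusted p = 0.392) but ran to 814 in X22L and 547 in X10 against a highest normal gland of 252. Col10a1, the collagen of growth plate cartilage, rose by 0.57 (SE 0.11) and Col26a1 by 0.58 (SE 0.10). All 24 tumours were above the normal median for Col26a1 and 13 were above every normal gland. Col7a1, which anchors basement membranes to the dermis, changed by -0.29 (adjusted p = 0.174) and was called lower without NewN4, NewN6 and X27.1N (-0.49).

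Both chains of the common form of collagen IV fell. Col4a1 and Col4a2 encode these chains and lie head to head. Their RefSeq starts in rat assembly GRCr8 lie 76 bases apart with the genes running away from each other, at chr16:84885521-84885596. The interval is shown, on the plus strand, because both genes share it while their changes differed.
Col4a1 and Col4a2: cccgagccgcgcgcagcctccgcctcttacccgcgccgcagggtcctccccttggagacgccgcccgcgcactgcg

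The interval holds neither CCAAT nor TATAAA, searched on both strands. Outside it, CCAAT matches lie 170 bases before and 24 after the start of Col4a1. The latter is also the match 105 bases before the start of Col4a2. Col4a1 had signals of 1781, 3245 and 4125 in normal glands and of 828, 2056 and 3566 in tumours. No tumour exceeded the highest normal gland and 7 lay below the lowest, X27.1N. It fell by 0.54 (SE 0.19, adjusted p = 0.0126), but was not called on a second probe set (-0.45, adjusted p = 0.0937) or under quantile normalization (-0.29). Col4a2 had signals of 771, 2052 and 2891 in normal glands and of 290, 981 and 2037 in tumours. All 24 tumours lay below the normal median and 10 below every normal gland, and the gene fell by 1.19 (SE 0.25, adjusted p = 0.000122).

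The ratio of Col4a1 to Col4a2 within an array was higher in tumours by 0.65 on the log2 scale (SE 0.15, two-sided permutation p = 5e-05). It was 1 of 4 ratios tested, all chosen after their values were seen (adjusted p = 5e-05). The adjustment does not cover that choice, so this p-value is not separate evidence of a change. The ratio lay above the normal median in 24 of 24 tumours and above every normal gland in 7. The difference was -0.07 when only X27.1N and X28.1N served as normal glands, and 0.90 when only the NewN glands did.

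Of the other basement membrane collagens, Col15a1 fell most. Col15a1 encodes a collagen that links basement membranes to the fibrils next to them. Its signals were 415, 1044 and 1471 in normal glands and 60.1, 161 and 1258 in tumours. Of the tumours 21 lay below every normal gland, while X10 (1258) and X22L (1127) lay above the normal median. It fell by 2.35 (SE 0.36, adjusted p = 1.37e-06). Col18a1, its nearest relative and the precursor of endostatin, changed by -0.14 (adjusted p = 0.569), with signals of 355, 715 and 966 against 171, 638 and 1082. Col4a5 changed by 0.28 (SE 0.13, adjusted p = 0.0581), with signals of 304, 452 and 801 in normal glands and of 344, 569 and 826 in tumours, and was called higher without X22L (0.31) and without Young (0.36). Col4a4 rose by 0.20 (SE 0.07, adjusted p = 0.0102), but 8 normal glands and 5 tumours were at the floor, and under quantile normalization it was not called (0.14).

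The laminin alpha chains went in different directions. Lama4 fell and Lama5 rose, and the 150 bases before the RefSeq start of each (GRCr8) are shown so that the windows of these chains can be compared. The window of Lama4 is chr20:43946748-43946897 on the plus strand, and that of Lama5 is chr3:187695975-187696124 on the minus strand.
Lama4: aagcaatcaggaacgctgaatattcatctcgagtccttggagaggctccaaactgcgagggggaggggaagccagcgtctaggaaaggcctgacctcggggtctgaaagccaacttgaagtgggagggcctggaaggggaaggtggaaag
Lama5: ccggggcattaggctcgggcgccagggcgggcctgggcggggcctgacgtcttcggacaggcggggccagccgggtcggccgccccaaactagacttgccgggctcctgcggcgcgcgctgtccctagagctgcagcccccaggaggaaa

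These stretches hold no CCAAT and no TATAAA on either strand, and a TATAAA of Lama4 lies 205 bases before its start, outside the bases shown. Lama4 had signals of 271, 504 and 658 in normal glands and of 99.9, 190 and 343 in tumours. All tumours lay below the normal median and 20 below every normal gland, and the lowest normal glands were NewN6 (271) and X27.1N (283). It fell by 1.29 (SE 0.15, adjusted p = 1.16e-08). Lama5 had signals of 109, 198 and 288 in normal glands and of 39.8, 507 and 1256 in tumours. Of the tumours 21 lay above every normal gland, X32 highest, while X22L (39.8) lay below every one and at the floor. It rose by 1.16 (SE 0.28, adjusted p = 0.000733). A second probe set of Lama5 rose by 1.45 (SE 0.32). Its mean signal over the normal glands was 2.90, under the floor, which limits the size of that measured rise.

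Lama2, the alpha chain of muscle, nerve and mesenchymal cells, had signals of 348, 659 and 1078 in normal glands and of 55.9, 121 and 831 in tumours. Of the tumours 22 lay below every normal gland, the exceptions being X22L (831) and X10 (524). It fell by 2.28 (SE 0.28, adjusted p = 2.1e-08). Most markers of muscle and Schwann cells were also lower: 7 of 7 skeletal muscle markers and 3 of 5 Schwann cell markers fell, and 1 Schwann cell marker rose. The muscle sum was 1337 to 13239 in normal glands and 968 to 1816 in tumours, and the Schwann cell sum was 2411 to 8879 against 612 to 1853. In X22L and X10 the muscle sums were 1092 and 1639, the Schwann cell sums 1012 and 1478, and the fibroblast sums 12892 and 8864. Acta1, Actn3 and Myh4 of muscle and Mbp of Schwann cells were at the floor in over 12 tumours, and the part of these cells in the result was not tested.

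Within an array the log2 ratio of Lama5 to Lama4 was higher in tumours by 2.45 (SE 0.26) and that of Lama5 to Lama2 by 3.44 (SE 0.36). Each was above every normal gland in 23 of 24 tumours, and the two-sided permutation test gave p = 1e-05 (adjusted over the 4 ratios, 1.33e-05), the lowest value possible with 100000 permutations. Both ratios were chosen after the values were seen and set a gene that rose over a gene that fell. The adjustment does not cover that choice, so these p-values are not separate evidence of a change. Without X22L the differences were 2.60 and 3.70. With only X27.1N and X28.1N as normal glands they were 2.67 and 3.68.

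The beta and gamma chains of the common laminins fell. Lamb2 fell by 1.40 (SE 0.18, adjusted p = 3.37e-08), from a median of 965 to 352, and 15 tumours lay below every normal gland. Lamc1, the gamma chain shared by most laminins, had signals of 826, 1242 and 1650 in normal glands and of 266, 862 and 1724 in tumours. Tumours overlapped the normal glands, 11 lying below every one and X32 above every one, and the gene fell by 0.55 (SE 0.20, adjusted p = 0.0172), but was not called under quantile normalization (-0.26). Lamb1 fell by 0.39 (SE 0.15, adjusted p = 0.0285), with medians of 661 and 571, and was not called without Young (-0.30), without X2, X4 and X20 (-0.28) or under quantile normalization (-0.16). Lama1, the chain of embryonic laminin, rose by 0.54 (SE 0.12), from a median of 88.6 to 133. Lama3, the chain of epithelial hemidesmosomes, changed by -0.03 (adjusted p = 0.945).

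Nidogens and perlecan, the connectors of the basement membrane, fell. Nid2 had signals of 419, 789 and 1273 in normal glands and of 71.5, 129 and 1039 in tumours. Of the tumours 23 lay below every normal gland, and the remaining tumour, X22L, lay above the normal median. It fell by 2.43 (SE 0.25, adjusted p = 6.33e-10). Nid1 had signals of 789, 1041 and 1847 against 157, 383 and 1088, and 21 tumours lay below every normal gland. It fell by 1.43 (SE 0.21, adjusted p = 8.19e-07). Hspg2, which encodes perlecan, had signals of 354, 759 and 1020 against 110, 203 and 423. All tumours lay below the normal median, and the gene fell by 1.71 (SE 0.19, adjusted p = 1.4e-09).

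Agrn, which encodes agrin, the other large heparan sulfate proteoglycan of basement membranes, was not called. Its signals were 312, 611 and 730 in normal glands and 374, 650 and 1006 in tumours, so the groups overlapped, and the change was 0.30 (SE 0.14, adjusted p = 0.0693). It was called higher without X22L (0.33), without X2, X4 and X20 (0.34), under quantile normalization (0.53) and with only X27.1N and X28.1N as normal glands (0.95). The ratio of Agrn to Hspg2 within an array was higher in tumours by 2.01 (SE 0.22, two-sided permutation p = 1e-05, adjusted p = 1.33e-05), and 23 of 24 tumours lay above every normal gland. This ratio too was chosen after the values were seen, with Hspg2 lower in tumours, so its p-value is not separate evidence of a change.

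Dermatopontin, a small protein that binds decorin and collagen fibrils, showed the largest fall. The 150 bases before its start and before those of Lum and Postn are shown because these genes varied most between tumours or between groups and have a match to a searched motif. Capitals mark CCAAT, read as ATTGG where it lies on the other strand, and TATAAA. The windows (GRCr8, plus strand) are chr13:79656191-79656340 for Dpt, chr7:34245556-34245705 for Lum and chr2:140677911-140678060 for Postn.
Dpt: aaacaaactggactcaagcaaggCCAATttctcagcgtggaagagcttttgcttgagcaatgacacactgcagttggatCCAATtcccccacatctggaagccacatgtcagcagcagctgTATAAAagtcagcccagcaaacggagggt
Lum: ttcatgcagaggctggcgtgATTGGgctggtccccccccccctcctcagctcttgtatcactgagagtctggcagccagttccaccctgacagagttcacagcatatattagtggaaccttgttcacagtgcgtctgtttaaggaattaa
Postn: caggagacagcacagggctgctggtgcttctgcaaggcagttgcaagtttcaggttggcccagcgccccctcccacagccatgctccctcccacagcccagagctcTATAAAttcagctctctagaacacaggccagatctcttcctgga

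In Dpt the matches to CCAAT begin 127 and 71 bases before the start and TATAAA begins 29 before it, while TATAAA begins 44 before the start of Postn. Windows of 300 bases around the start were found for 40 of the 54 members. CCAAT was in 13 of these 40 (32.5%), against 37.5% of 33469 windows of the same length, and TATAAA in 5 (12.5%), against 14.2%. Of the windows of members that fell 9 of 20 held CCAAT, of those that rose 2 of 8, and of those not called 2 of 12. A match is a description of letters and not a binding site.

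Dpt had signals of 2234, 4158 and 5700 in normal glands and of 25.8, 152 and 1644 in tumours. Every tumour lay below every normal gland, which held for no other member and for 2.27% of all genes, and the highest tumours were X15 (1644) and X10 (1271). It fell by 4.51 (SE 0.45, adjusted p = 2.55e-10), a 22.7-fold lower level with 3 tumours at the floor, and a second probe set fell by 4.61 (SE 0.39). No member was above every normal gland in all tumours, which held for 0.288% of genes.

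Of the small leucine-rich proteoglycans, Dcn, Lum and Bgn fell and Fmod did not pass. Dcn, which encodes decorin, had signals of 2914, 5535 and 6919 in normal glands and of 50.1, 613 and 5647 in tumours. Of the tumours 20 lay below every normal gland, and X22L (5647) and X10 (4423) were highest. It fell by 3.06 (SE 0.59, adjusted p = 4.01e-05), an 8.36-fold lower level. Lum, which encodes lumican, fell by 1.84 (SE 0.62, adjusted p = 0.0109), with signals from 11.6 to 4281 in tumours and from 568 to 2172 in normal glands. Of the tumours 15 lay below every normal gland and 3 above every one, and X18, X19, X20 and X32 were at the floor. Bgn, which encodes biglycan, fell by 1.66 (SE 0.42, adjusted p = 0.000942), from a median of 1467 to 422. Fmod, fibromodulin, had signals of 198, 365 and 494 in normal glands and of 76.7, 329 and 806 in tumours (-0.12, SE 0.22, adjusted p = 0.664), and X22L was the lowest tumour.

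Among the elastic fibre genes, fibrillin fell and elastin did not pass. Fbn1, whose product forms the microfibril scaffold, had signals of 739, 1077 and 3082 in normal glands and of 62.6, 134 and 1491 in tumours. Of the tumours 22 lay below every normal gland, and X10 was highest. It fell by 2.67 (SE 0.36, adjusted p = 1.08e-07). Eln, the elastin gene, had signals of 503, 749 and 3670 in normal glands and of 264, 617 and 2876 in tumours. The highest normal gland was Young and the highest tumours were X10 (2876) and X22L (2722), and the change was -0.19 (SE 0.31, adjusted p = 0.622). Fbln5, which brings elastin to microfibrils, fell by 0.43 (SE 0.15, adjusted p = 0.0138), and Fbln1 changed by -0.06 (adjusted p = 0.72).

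The crosslinking enzymes varied widely. Lox, lysyl oxidase, had signals of 198, 279 and 2097 in normal glands and of 15.7, 111 and 1409 in tumours. Of the tumours 15 lay below every normal gland while 6 lay above the normal median. It fell by 1.28 (SE 0.52, adjusted p = 0.0333), and it was not called without Young (-1.01) or without X2, X4 and X20 (-1.04). Tumours X2, X18, X20, X25R and X32 were at the floor for Lox. Loxl1, which acts on elastic fibres, fell by 1.73 (SE 0.51, adjusted p = 0.0041), with X22L (3282) and X10 (1860) above the highest normal gland (1638).

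Both adhesive glycoproteins fell. Fn1, the fibronectin gene, had signals of 2006, 2884 and 6462 in normal glands and of 133, 540 and 4214 in tumours. Of the tumours 20 lay below every normal gland, and the gene fell by 2.18 (SE 0.42, adjusted p = 3.54e-05). Postn, which encodes periostin, a protein that binds collagen I and fibronectin, had signals of 2306, 3163 and 7173 against 33.5, 937 and 7494. Of the tumours 16 lay below every normal gland and X22L lay above every one. It fell by 1.95 (SE 0.57, adjusted p = 0.00402).

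**Figure D3:**
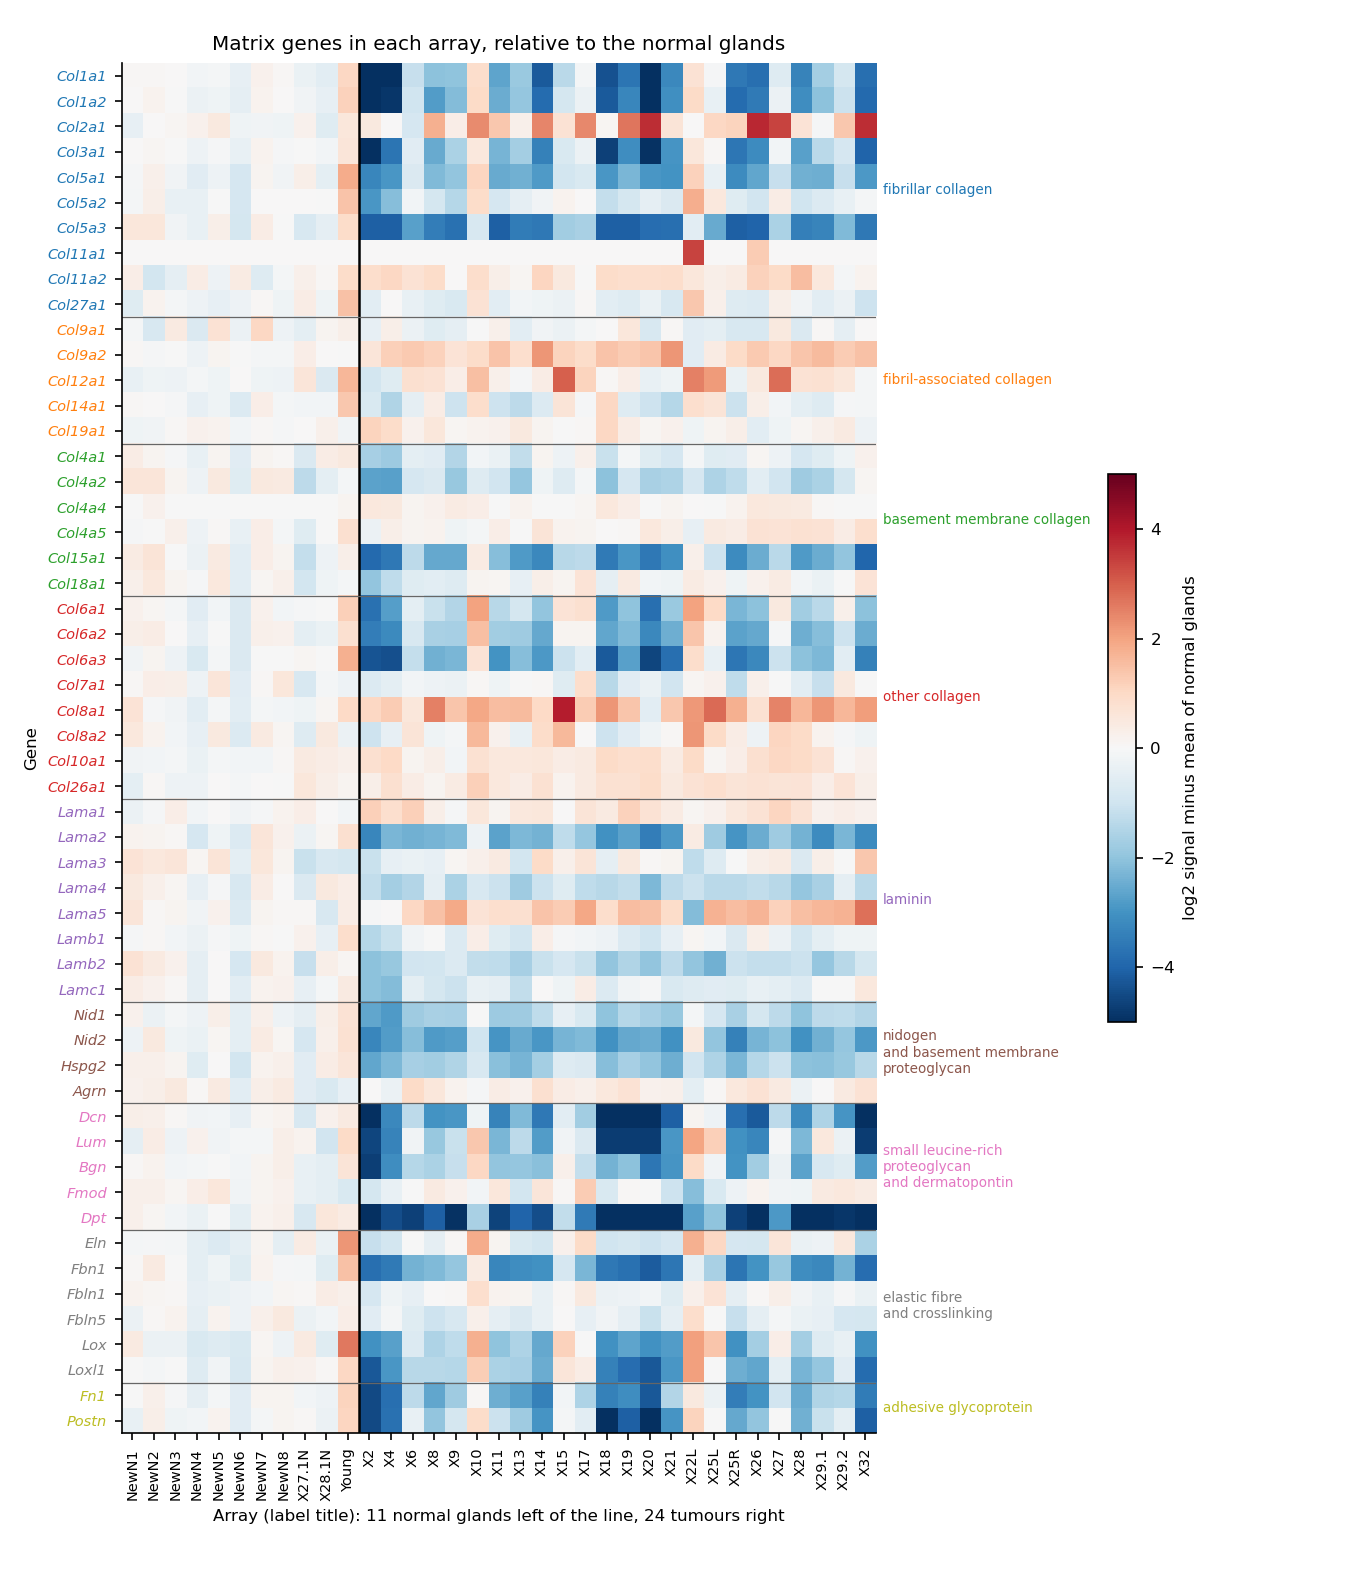
Log2 signal of each of the 54 members on each of the 35 arrays, minus the mean of the normal glands, from blue (lower) to red (higher), with the colour scale ending at 5 in either direction. Normal glands are left of the line and tumours right, and row labels are coloured by structural class. X22L and X10 lie above the normal mean for many members, such as Col6a1 (2.03 and 2.0) and Lum (1.96 and 1.35), and X2, X4 and X20 far below it for Col1a1.

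Many members varied widely between tumours. The standard deviation of the log2 signal was larger in tumours than in normal glands for 45 of 54 members (83.3%), against 61.7% of all genes. It exceeded 1 among tumours in 20 members (37.0%), against 1.74% of genes, and among normal glands in 0 members, against 0.903% of genes. For Col1a1 it was 1.96 over tumours and 0.40 over normal glands, for Dcn 2.01 and 0.37, and for Lum 2.10 and 0.50. Lama4 (0.43 and 0.46) and Lamb2 (0.47 and 0.58) varied less between tumours than between normal glands. These are descriptions without a test.

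**Figure D4:**
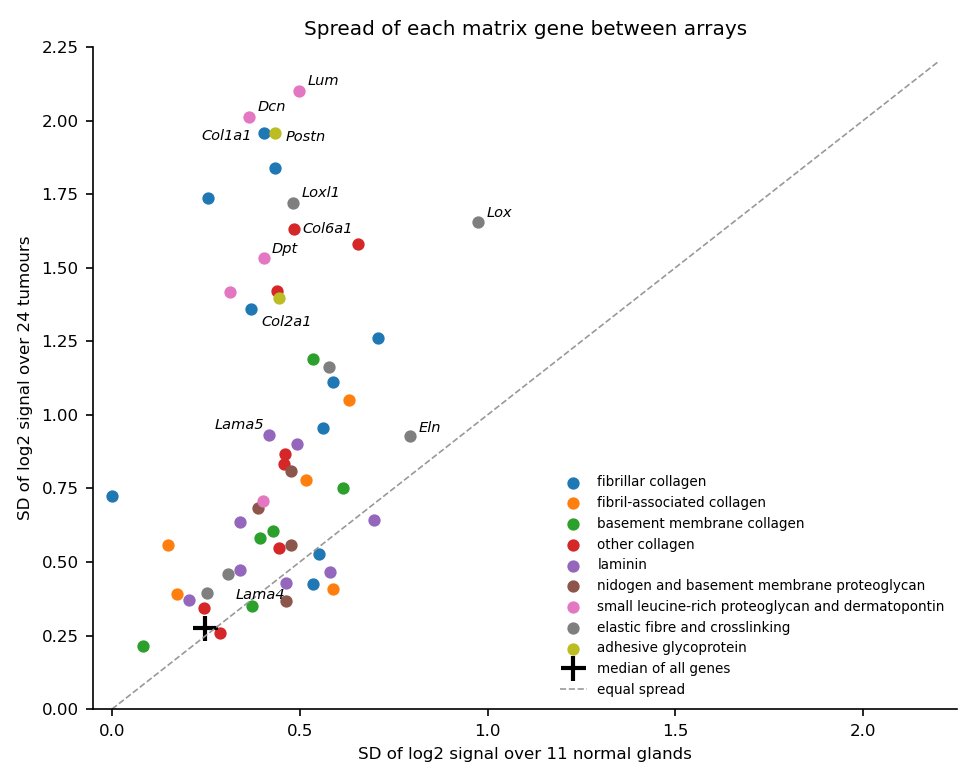
Standard deviation of the log2 signal over 24 tumours against that over 11 normal glands, 1 point per member, coloured by class. The dashed line marks equal spread and the cross the median of all genes, 0.28 over tumours and 0.25 over normal glands. Lum, Dcn, Col1a1 and Postn lie highest, and 45 of 54 members lie above the line.

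A few tumours held most of the extremes. X22L was the highest tumour for 19 members (35.2%, against 13.9% of all genes) and X10 for 9 (16.7%, against 2.47%). X2 was the lowest for 13 (24.1%, against 6.74% of genes) and X20 for 8 (14.8%, against 3.40%). X22L was also the lowest tumour for 6 members (11.1%), against 15.5% of genes. The summed fibroblast markers were 12892 in X22L and 8864 in X10, against 831 in X2 and 1682 in X20. Sums under that of X20 were also found in X4 (1065), X18 (1117), X21 (1196) and X25R (1377). The same held for X32 (1518), X28 (1602), X13 (1642) and X14 (1644). In this order they were the lowest tumour for 5, 2, 0, 2, 3, 0, 0 and 0 members. Of all genes they were the lowest for 12.1%, 1.59%, 1.38%, 3.53%, 4.74%, 3.18%, 1.81% and 2.32%. Whether the fibroblast sum goes with the extremes was not tested. The luminal sum was 1368 in X22L, 14058 in X10, 24543 in X2 and 20218 in X20, and the adipocyte sum was 2520, 1789, 677 and 859. Without X10 and X22L 31 members were called lower and 11 higher, beside 2922 and 3370 of all 10411 genes. Without X2, X4 and X20 the counts were 26 and 11 members, beside 2687 and 3152 genes. Leaving out X22L alone gave 30 and 11 members, beside 2944 and 3376 genes.

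Many members rose and fell together across the tumours. Of the 18 pairs of genes examined over 24 tumours, the chains Col1a1 and Col1a2 had a Pearson r of 0.985 (Spearman rho 0.983), and Col1a1 and Col3a1 0.973 (rho 0.983). Leaving out the tumours farthest from the median of Col1a1, X20 and X2, gave 0.984 and 0.964. With Col1a1 the r was 0.923 for Fn1, 0.914 for Bgn, and 0.907 for both Lox and Postn, and it was 0.849 (rho 0.828) for Pdgfrb, a receptor of fibroblasts and pericytes. These correlations with Col1a1 had rho values of 0.927, 0.902, 0.927 and 0.95 for Fn1, Bgn, Lox and Postn. In each case both measures had p = 1e-05 in the two-sided permutation test, the lowest possible with 100000 permutations (adjusted over the 18 pairs, 1.5e-05 for r and 1.64e-05 for rho). Without the 2 tumours farthest from the median of the first gene, r was 0.896 for Fn1, 0.879 for Bgn, 0.871 for Lox, 0.933 for Postn and 0.842 for Pdgfrb. The points share an array, and so its scaling.

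Decorin and lumican were closely related across tumours. Over the 24 tumours r was 0.959 (rho 0.967, permutation p = 1e-05 for both, adjusted 1.5e-05 and 1.64e-05), and 0.953 without X22L and X20. Dcn was also related to Col3a1 (r = 0.932, rho 0.940) and to Dpt (r = 0.879, rho 0.822), with the same permutation p of 1e-05. Without X22L and X20 these were 0.912 and 0.864.

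Among the basement membrane genes the head-to-head pair had the highest r of the pairs run. Col4a1 and Col4a2 had an r of 0.953 over tumours (rho 0.934, permutation p = 1e-05, adjusted 1.5e-05), and of 0.925 without X2 and X4. For Lamb1 and Lamc1 r was 0.575 (rho 0.434, permutation p = 0.00308 and 0.0353, adjusted 0.00396 and 0.0424), but it was 0.271 without X4 and X2, so the relation rests on them. For Col4a1 and Kdr, a receptor of endothelial cells, r was 0.569 (rho 0.509, permutation p = 0.00339 and 0.0114, adjusted 0.00407 and 0.0146) and 0.434 without X2 and X4. For Nid2 and Col4a1 r was 0.382 (rho 0.425, permutation p = 0.0622 and 0.0399, adjusted 0.0658 and 0.0449), and 0.392 without X10 and X22L.

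Lama5 and the luminal keratin gene Krt8 had an r of 0.703 (permutation p = 0.0189, adjusted 0.0212) but a rho of 0.156 (permutation p = 0.464). Without X22L r was 0.03, so the value rests on that tumour. Lama5 and Col4a1 had an r of 0.273 (rho 0.365, permutation p = 0.199 and 0.0798), which was 0.537 without X2 and X22L and 0.625 without X22L alone. The chains Col5a1 and Col5a2 had an r of 0.781 (rho 0.656) and Col3a1 and Col5a2 of 0.725 (rho 0.692). Their permutation p-values for r were 1e-05 and 3e-05, adjusted 1.5e-05 and 4.15e-05, and for rho 0.0007 and 0.00028, adjusted 0.000969 and 0.00042. Without X10 and X22L their r was 0.635 and 0.630.

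Over the 11 normal glands the same 18 pairs were computed, and whether any correlation differs between the groups was not tested. The r was 0.971 for Col1a1 and Col1a2 (rho 0.936), 0.930 for Dcn and Dpt (rho 0.891) and 0.825 for Nid2 and Col4a1 (rho 0.818). The permutation p-values for r, adjusted over the 18 pairs, were 0.00036, 0.00072 and 0.00291, and those for rho were 0.00126, 0.00243 and 0.012. Without the 2 glands farthest from the median of the first gene, these r were 0.888, 0.796 and 0.646. For Dcn and Lum r was 0.05 (rho 0.09, adjusted permutation p = 0.888 and 0.846), and 0.20 without NewN6 and X27.1N. For Col4a1 and Col4a2 r was 0.667 (rho 0.50, adjusted permutation p = 0.037 and 0.156), but 0.05 without NewN6 and X27.1N, so the relation rests on them. For Col4a1 and Kdr r was -0.33 (rho -0.15, adjusted permutation p = 0.347 and 0.756), and 0.42 without NewN6 and X27.1N.

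**Figure D5:**
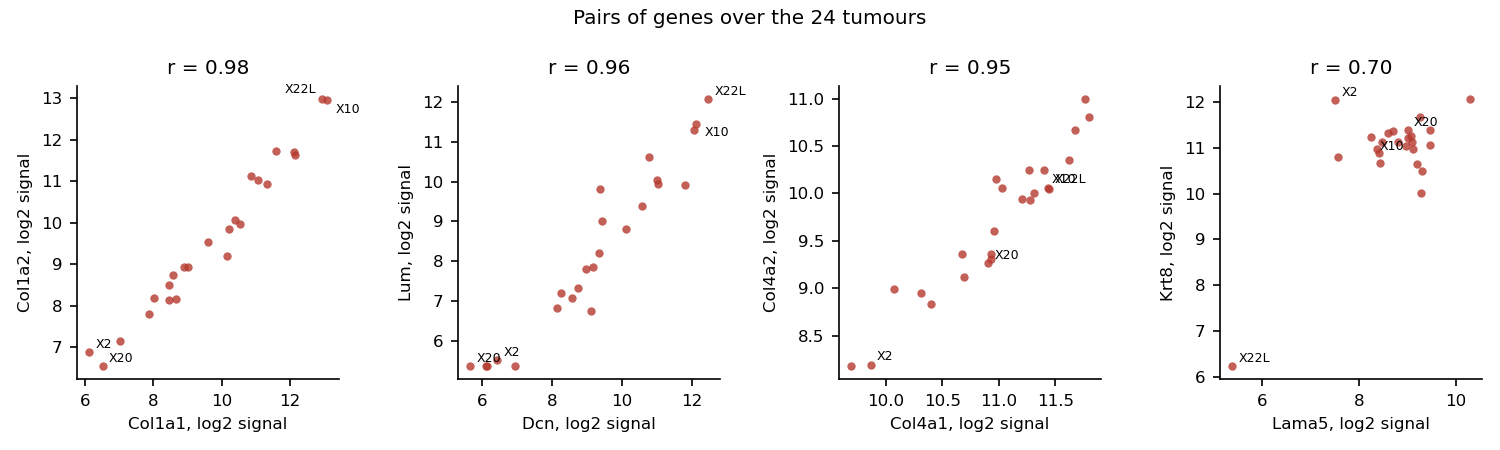
Log2 signal of pairs of genes over the 24 tumours, 1 point per tumour, with Pearson's r above each panel and the tumours X2, X10, X20 and X22L named. Col1a1 with Col1a2, Dcn with Lum and Col4a1 with Col4a2 lie along lines, whereas the r of 0.70 for Lama5 with Krt8 comes from X22L, without which it is 0.03.

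The normal glands differed among themselves as well. The gland titled Young, about which the labels say nothing more, was the highest normal gland for 32 of 54 members (59.3%), against 16% of all genes. For 9 members (16.7%) it was at least 2-fold above every other normal gland. The share of all genes past that cut was not computed, so this count is a description only. Lox was 2097 in Young against at most 466 in the others, Eln 3670 against 1053, Col6a3 3433 against 1106 and Col5a1 4247 against 1413. Col5a2, Col27a1, Col12a1, Col14a1 and Fbn1 were the other members past 2-fold. The fibroblast sum in Young was 10789, the highest of the normal glands, and the luminal sum 4641, the lowest. NewN6 was the lowest normal gland for 16 members (29.6%, against 9.86% of genes).

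Between the 8 NewN glands and the other 3 normal glands, 5 members were called (9.26%, against 20.5% of genes). Col10a1 (0.48) and Col26a1 (0.46) were higher in the other glands, and Lama3 (-1.29), Agrn (-0.78) and Fmod (-0.75) were lower. Lama3, Agrn and Fmod were not called between tumours and normal glands. Of 12 luminal epithelial markers 8 were lower in the same glands.

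Genes on the dimmer probe sets were called higher more often as a whole. These are sets whose log2 signals, taken with the floor, averaged under the log2 of 168. There 39.3% of genes were higher and 18.9% lower, and of the 13 members 6 were higher and 1 lower. The members that rose there were Col11a2, Col4a4, Col8a1, Col10a1, Col26a1 and Lama1. Among the brighter probe sets 25.6% of genes were higher and 34.0% lower, and of 41 members 3 were higher (Col2a1, Col9a2 and Lama5) and 28 lower.

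Genes that process and regulate the matrix were counted for comparison with all genes, of which 27.6% fell and 31.4% rose. Of 16 collagen maturation genes 6 fell and 3 rose. Pcolce, the enhancer of procollagen C-proteinase, fell by 1.30 (SE 0.40) and Serpinh1, the collagen chaperone, fell by 0.86 (SE 0.19), whereas the lysyl hydroxylases Plod1 (0.82, SE 0.16) and Plod2 (0.80, SE 0.16) rose. Of 17 matrix receptors 4 fell and 4 rose, and neither list is read as a result about its genes. The laminin receptor subunit Itga7 fell by 2.73 (SE 0.16) and the collagen receptor Ddr2 fell by 2.24 (SE 0.21), while Itga3, a subunit of an epithelial laminin receptor, rose by 1.07 (SE 0.13) and the proteoglycan Sdc1 by 0.81 (SE 0.18). Itga7 was below every normal gland in 24 of 24 tumours, and Itga3 was above every normal gland in 23.

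Of 22 genes of TGF-beta signalling and matrix regulation 9 fell and 5 rose, so that the share called was near the 59.0% of all genes. Pdgfra, the receptor of fibroblasts, fell by 2.70 (SE 0.50) and Ltbp4, which holds latent TGF-beta in the matrix, fell by 1.90 (SE 0.16). Ccn2 (0.90, SE 0.25) and the growth factor Pdgfa (0.76, SE 0.17) rose. Of 23 other matrix proteins 12 fell and 5 rose. The microfibril protein Mfap5 fell by 3.77 (SE 0.41) and Ogn, osteoglycin, fell by 3.40 (SE 0.43). Spp1, osteopontin, rose by 2.75 (SE 0.31), from a median of 62.0 to 404, and Vcan, the large proteoglycan versican, by 1.53 (SE 0.28), from 153 to 527.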

How the data were processed

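Total RNA of 24 tumours and 11 normal glands was read on 35 arrays. The deposited table holds the authors' intensity for 15923 probe sets on a linear scale, and the software, background correction and scaling behind it were not stated in the labels or the file. Control probe sets (57) were left out, signals under the 10th percentile (41.6) were set to that floor, log2 was taken and the scaling was kept. Groups came from the labels. The groups were compared with limma 3.58.1 (lmFit, eBayes with trend and robust) in R 4.3.3, two-sided, without covariates. The procedure was tested on simulated data with equal spread in both groups and few changed probe sets. The real data differ in both, so that test does not settle the error rate here. Symbols came from the platform annotation. All 54 members matched RefSeq by Entrez identifier, and 17 have a second probe set, whose call was the same in 13 and opposite in 0. Correlations and ratios used permutation tests with 100000 resamples, for pairs with both genes above the floor in at least 18 tumours. Promoter windows are from RefSeq, assembly GRCr8.

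The members, gene lists and pairs were chosen with earlier results of these data known. Values by sample are given for the largest rise, the largest fall and the highest mean signal of each class, and for other members where a result turns on them. From each pathway list the 2 largest called rises and falls are named. Alternatives covered the scaling, the floor, dim probe sets, the variance model, array weights, the normal glands and tumours used, an adipocyte covariate, a replicate block and the probe sets per gene. Those without Young, without X10 and X22L, and without X2, X4 and X20 were chosen after the data were seen. Figures were drawn with matplotlib 3.10.9.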

Additional observations from a re-analysis of the deposited data

Results flagged for a closer look

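On log2 values with the floor, a single one of the 8 NewN glands stood far from the others for 3 members by Dixon's ratio at 95%, which chance alone does for about 1 group in 20. On the deposited signals without the floor or log2, all 3 ratios were under the critical value. Col4a4 had a signal of 49.3 in NewN2, against 21.2 to 35.4 in the others. Those 7 glands were all set to the floor of 41.6, which fixes the ratio at 1, and it was 0.492 on the signals. Col8a1 had 96.1 in NewN1, against 1 to 57.5 in the others, with 2 glands at the floor, and its ratio was 0.614, or 0.406 on the signals. Agrn had 365 in NewN6, against 554 to 730 in the others, with no gland at the floor, and its ratio was 0.601, or 0.517 on the signals.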

How the results depend on the processing

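Across 14 alternatives that kept at least 8 normal glands and 21 tumours, added no covariate and tested all genes, 26 to 31 members were called lower and 8 to 12 higher, and no called member changed direction. Over the same alternatives 2334 to 3362 of the 10411 genes were called lower and 2850 to 3842 higher. Among the 6004 genes on brighter probe sets tested alone, 3 members and 1539 genes were called higher. In the fit of all genes, 25.6% of genes on brighter probe sets and 39.3% of the 4407 on dimmer ones were called higher. Against X27.1N and X28.1N alone, 2 glands in place of 11, 6 members were lower (Dpt, Hspg2, Nid2, Lama2, Lama4 and Col5a3) and 1 higher (Agrn), with 668 genes lower and 306 higher. Of the calls on all genes 53.2% were higher as reported, 31.4% against these glands, 43.0% among the brighter probe sets and 60.4% under quantile normalization. Col6a1 lost its call without Young, without X2, X4 and X20, with 1 tumour per title number and under most other settings, but not without X22L, alone or with X10. Under quantile normalization Col4a1 (-0.29), Col4a4 (0.14), Col6a1 (-0.90), Lamb1 (-0.16) and Lamc1 (-0.26) lost it. Between the NewN and other normal glands, 4 members were called under quantile normalization and 5 without NewN4, NewN6 and X27.1N.

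With the adipocyte score as covariate 0 members were lower and 2 higher (Col8a1 5.50 and Col8a2 4.55), and 5 genes were lower and 8 higher. The fitted changes of 33 members reversed there, none of them called. They were Col1a1 2.69, Col1a2 2.89, Col3a1 2.78, Col5a1 1.58, Col5a3 1.33, Col4a1 0.97, Col4a2 1.13, Col15a1 2.78, Col6a1 4.47, Col6a2 3.97, Col6a3 1.96, Lama2 1.57, Lama4 1.0, Lamb2 0.74, Lamc1 0.24, Nid1 1.21, Nid2 0.062, Hspg2 1.16, Dcn 4.61, Lum 3.19, Bgn 3.12, Dpt 3.48, Fbn1 1.73, Fbln5 1.26, Lox 4.0, Loxl1 4.56, Fn1 2.78 and Postn 3.65 in place of falls. Col2a1 -0.057, Col11a2 -0.50, Col9a2 -0.11, Col4a4 -0.019 and Lama1 -0.41 stood in place of rises. The score was nearly the group itself (correlation -0.97), and the cause was not tested beyond that.

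A replicate block by the number in the title was possible for 4 arrays only (X27 with X27.1N and X28 with X28.1N). It called 0 members and 0 genes in either direction, and Fbln5 changed by 0.0042 there. Nothing in the labels says that these numbers mark an animal. Signals near the floor limit the size of falls such as those of Col5a3, Dpt, Lum and Lox.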
